A study of Mus musculus with 8 samples.

Results

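A set of 8 circadian clock genes was followed across the uterine epithelium and stroma of mice with and without a conditional deletion of Ezh2. They were taken by symbol from the authors' 4 comparison tables. They are the Period genes Per1, Per2 and Per3, the nuclear receptor genes Nr1d1 and Nr1d2, the transcription factor genes Dbp and Tef, and Clock. The list was drawn up with the values of these tables in view, so the genotype and compartment values below describe these genes and test nothing about them. Of the 8 genes, 7 were found among the 5828 genes listed in at least 1 table, and expression of Clock was not analysed here. All 7 were listed for KO against WT epithelium, 4 for KO against WT stroma, 4 for KO epithelium against KO stroma and 5 for WT epithelium against WT stroma.

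The series profiled 8 uteri by Visium, where a tissue section lies on a slide printed with barcoded spots, and each spot captures polyadenylated RNA from the small region above it, which can hold several cells. The KO group held 4 Ezh2cKO females of genotype EZ fl/fl; Prcre/+, and the WT group held 4 females of genotype EZ fl/fl. Both groups thus carry floxed Ezh2 alleles, and KO differs by the Cre allele at the progesterone receptor locus, which limits the deletion to cells that have used that locus. Both are of a mixed C57BL/6 and 129SvEv strain, both were ovariectomized at postnatal day 71 ± 4, and uteri were taken at day 112 ± 11, with a KO and a WT female from each of 4 litters. The hour of the day at collection is not given in the sources used here. EZH2 is the Polycomb enzyme that methylates histone H3 in gene silencing, and the Ezh2 transcript itself was not analysed here.

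The mammalian clock is a loop of transcription factors that runs in nearly every cell. CLOCK and its partner BMAL1 (gene Arntl) bind short DNA elements called E-boxes and switch on the Period, Cryptochrome, Nr1d, Dbp and Tef genes. PER and CRY proteins then return to the nucleus and inhibit CLOCK and BMAL1. The NR1D proteins (REV-ERBs) repress Arntl, and DBP and TEF act on D-box elements in output genes. Transcripts of these genes rise and fall over the day in peripheral tissues, and the uterus is known to hold such a clock.

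Promoter windows from RefSeq on GRCm38.p6, running from 250 bases before to 50 bases after an annotated start site, were available for Per1, Per3, Nr1d1, Nr1d2, Dbp, Tef and Clock, 11 windows in all. The windows were searched on both strands for the E-box CACGTG, the E-box variant CACGTT, the D-box spellings TTATGTAA and TTACGTAA, the nuclear receptor half-site AGGTCA and the cAMP element half-site TGACG. No matches of different motifs overlapped in these windows. The 4 windows below hold an E-box, an E-box variant or a D-box, the elements through which the loop acts. The other Tef window, with an E-box at position -127, is not shown. Each is the 250 bases before the start site, 5′ to 3′ on the strand of the gene, with matches in capitals. They lie at chr11:69098699-69098948 (plus strand) for Per1, chr4:151044666-151044915 (minus strand) for Per3, chr11:98775378-98775627 (minus strand) for Nr1d1 and chr15:81811164-81811413 (plus strand) for Tef.
Per1: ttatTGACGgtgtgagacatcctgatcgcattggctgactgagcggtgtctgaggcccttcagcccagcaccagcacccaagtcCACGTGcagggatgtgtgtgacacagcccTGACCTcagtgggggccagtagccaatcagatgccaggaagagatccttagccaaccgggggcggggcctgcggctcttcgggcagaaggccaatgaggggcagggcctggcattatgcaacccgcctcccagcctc
Per3: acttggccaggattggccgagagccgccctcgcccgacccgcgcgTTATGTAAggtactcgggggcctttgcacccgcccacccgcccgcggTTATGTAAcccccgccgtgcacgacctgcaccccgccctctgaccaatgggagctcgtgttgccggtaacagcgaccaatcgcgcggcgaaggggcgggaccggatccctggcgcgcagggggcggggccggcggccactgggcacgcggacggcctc
Nr1d1: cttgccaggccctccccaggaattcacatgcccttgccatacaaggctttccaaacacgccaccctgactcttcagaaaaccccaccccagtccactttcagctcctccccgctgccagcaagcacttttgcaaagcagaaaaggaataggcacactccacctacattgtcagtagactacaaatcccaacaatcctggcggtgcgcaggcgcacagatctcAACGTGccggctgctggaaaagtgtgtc
Tef: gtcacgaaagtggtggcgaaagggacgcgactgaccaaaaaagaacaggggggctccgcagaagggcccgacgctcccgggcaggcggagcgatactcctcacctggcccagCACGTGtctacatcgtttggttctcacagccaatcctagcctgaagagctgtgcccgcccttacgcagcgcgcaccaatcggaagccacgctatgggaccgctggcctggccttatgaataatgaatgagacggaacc
In Per1 the E-box begins at position -166 from the start site (-1 being the base just before it), and the window also holds a cAMP element half-site and, on the minus strand, a nuclear receptor half-site. Per3 holds the D-box TTATGTAA at positions -205 and -158 from its start, and no E-box. Nr1d1 holds CACGTT on the minus strand, at position -28, printed as AACGTG. Tef holds an E-box in both of its windows. The Nr1d2 window holds AGGTCA, as does a window of Clock on the minus strand, at position -119, and the Dbp window holds none of the 6 spellings. Over all 32851 windows of the table, 7.15% hold CACGTG, 4.68% CACGTT, 0.938% TTATGTAA, 0.119% TTACGTAA, 16.3% AGGTCA and 20.8% TGACG. A match describes letters only, and its absence says nothing about binding elsewhere.

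The authors' tables give a mean per group with all animals of a genotype pooled, so each group has 1 value, no spread between animals is known and no difference has a replicate check. Whole UMI sums (a UMI marks a single captured molecule) were recovered from those means. The sums of all genes with a value were 1552958 UMIs for KO epithelium (5823 genes) and 1428541 for WT epithelium (5821 genes). They were 947663 for KO stroma (2752 genes) and 416747 for WT stroma (1782 genes). Over the 1167 genes in all 4 tables, the sums were 1065374 for KO and 941026 for WT epithelium, and 777775 for KO and 378936 for WT stroma. On the scale of the size factors, the WT epithelium pool being 1, the KO epithelium pool had a depth of 1.08, the KO stroma pool 0.791 and the WT stroma pool 0.393. Ratios below are of sums divided by that depth, with exact 95% Clopper-Pearson intervals that cover counting error only. Levels are UMIs brought to the depth of the WT epithelium pool. A gene is listed in a table where its mean is above 1 in at least 1 of the table's groups, and a gene listed through its higher group alone had to differ. In pooled spots, fewer cells of a type and less RNA per cell cannot be told apart.

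The names of the pools were checked against markers. The 12 of 19 simple epithelium markers with values in all groups summed to 9661 scaled UMIs in KO epithelium and 11345 in WT epithelium. The same 12 summed to 3042 in KO stroma and 1416 in WT stroma. The 16 of 20 endometrial stroma markers with such values summed to 10371 in KO epithelium and 7545 in WT epithelium, and to 19747 in KO stroma and 21866 in WT stroma. Each pool thus holds transcripts of the other compartment. No listed marker was at 0 in a group, and the lowest value was 3 UMIs.

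All 7 clock genes were lower in KO epithelium than in WT epithelium, and none passed the authors' test. Per2 stood at 0.308 times its WT value, Nr1d1 at 0.552, Per3 at 0.595, Dbp at 0.659, Nr1d2 at 0.686, Tef at 0.775 and Per1 at 0.795. Of all 5811 genes listed in this table, 0.12% were called at an adjusted p under 0.05, 0.0516% lower and 0.0688% higher in KO, against 0 of the 7 clock genes. The median ratio of the 7 was 0.659 and that of all listed genes 0.930, with 64.8% of listed genes lower in KO. The 7 genes summed to 877 UMIs in KO and 1234 UMIs in WT epithelium, a ratio of 0.656 (0.601 to 0.716). That sum includes Per2, which was listed through WT epithelium alone. Over the genes listed through both groups the ratio was 0.677. Smooth muscle markers moved the same way between these pools, with a summed ratio of 0.624 (0.586 to 0.665) over 13 of 15 markers. Simple epithelium markers did so too, with a summed ratio of 0.845 (0.823 to 0.867) over 17 of 19 markers. The part of these markers in the result was not tested.

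Period genes encode the repressors that close the loop. Per2 had 24 UMIs in KO epithelium and 72 UMIs in WT epithelium (ratio 0.308, 0.185 to 0.494). Among listed genes 0.155% had a ratio as low or lower, and the authors' deposited table gives Per2 an adjusted p of 0.330. Its deposited mean was 0.389 in KO and 1.27 in WT, so it was listed through WT alone. No other clock gene of this comparison was listed through WT alone. Per3 had 80 UMIs in KO epithelium and 124 UMIs in WT epithelium (ratio 0.595, 0.444 to 0.795), and 2.17% of listed genes were as low. Per1 had 112 UMIs in KO epithelium and 130 UMIs in WT epithelium (ratio 0.795, 0.612 to 1.03). Its counting interval reaches past 1, and 20.1% of listed genes were as low. The 3 Period genes thus spread from a small difference in Per1, also known as an early responder to hormones and cAMP, to the largest of the 7 in Per2. The authors' deposited table gives Per1 and Per3 an adjusted p of 1. These genes lie on GRCm38 at chr11:69095217-69109960 (Per1, plus strand), chr1:91415982-91459324 (Per2, minus strand) and chr4:151003652-151044665 (Per3, minus strand), and all are protein-coding.

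**Figure D1:**
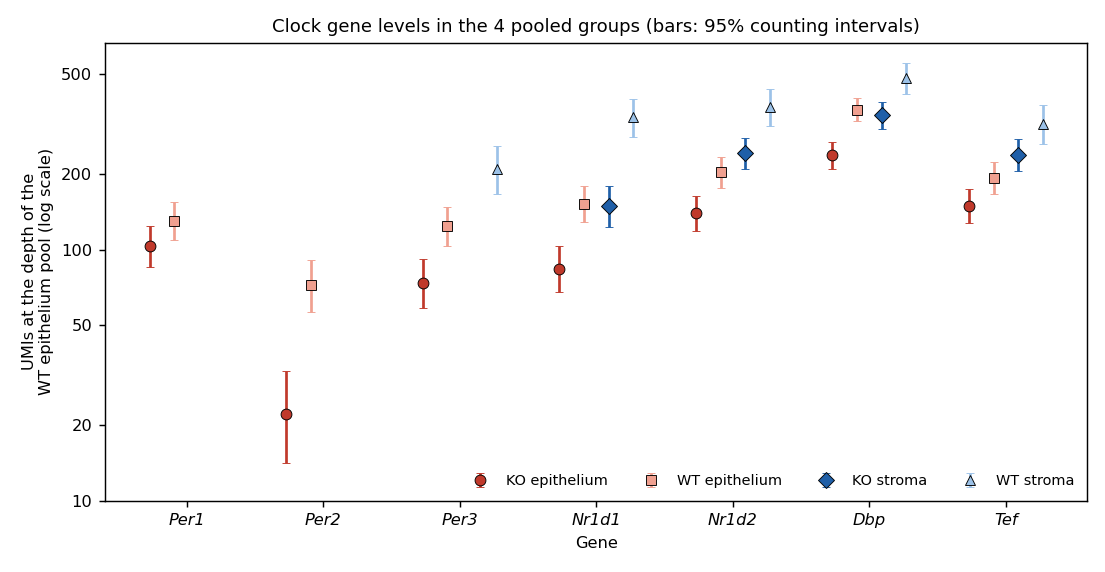
Levels of the 7 clock genes in the pooled groups, as UMIs at the depth of the WT epithelium pool on a log axis, with exact 95% Poisson intervals of the count. For Nr1d1, Nr1d2, Dbp and Tef the KO epithelium point is the lowest and the WT stroma point the highest, and Per2 in KO epithelium rests on 24 UMIs.

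Nr1d1 and Nr1d2 encode the REV-ERB repressors of Arntl. Nr1d1 had 91 UMIs in KO epithelium and 152 UMIs in WT epithelium (ratio 0.552, 0.421 to 0.721), and 1.36% of listed genes were as low. In stroma it had 118 UMIs in KO and 132 UMIs in WT, which after scaling for the deeper KO pool is a ratio of 0.444 (0.344 to 0.574), with 1.34% of listed genes as low. The authors' deposited table gives Nr1d1 an adjusted p of 0.842 in epithelium and 0.0646 in stroma, the lowest of the 4 clock genes listed there. Its deposited mean in that table was 0.692 in KO stroma and 1.56 in WT stroma, so it was listed through WT alone. Nr1d2 had 151 UMIs in KO epithelium and 203 UMIs in WT epithelium (ratio 0.686, 0.552 to 0.851). In stroma Nr1d2 had 191 UMIs in KO and 145 UMIs in WT (ratio 0.655, 0.525 to 0.818). Its adjusted p in the authors' deposited table was 1 in epithelium and 0.772 in stroma. Nr1d1 lies at chr11:98767932-98775333 and Nr1d2 at chr14:18204054-18239127 of GRCm38, both protein-coding and on the minus strand.

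Dbp and Tef encode PAR bZIP activators of D-box genes. Dbp had 257 UMIs in KO epithelium and 360 UMIs in WT epithelium (ratio 0.659, 0.559 to 0.775). In stroma Dbp had 271 UMIs in KO and 189 UMIs in WT (ratio 0.713, 0.590 to 0.863). Tef had 162 UMIs in KO epithelium and 193 UMIs in WT epithelium (ratio 0.775, 0.625 to 0.959). In stroma Tef had 189 UMIs in KO and 124 UMIs in WT (ratio 0.758, 0.601 to 0.958). All 4 ratios lay below 1, and the epithelium and stroma intervals of each gene overlapped. Adjusted p-values in the authors' deposited table were 1 for both genes in epithelium, and in stroma 0.944 for Dbp and 1 for Tef. Dbp lies at chr7:45705088-45710203 and Tef at chr15:81802421-81826863 of GRCm38, both protein-coding and on the plus strand.

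**Figure D2:**
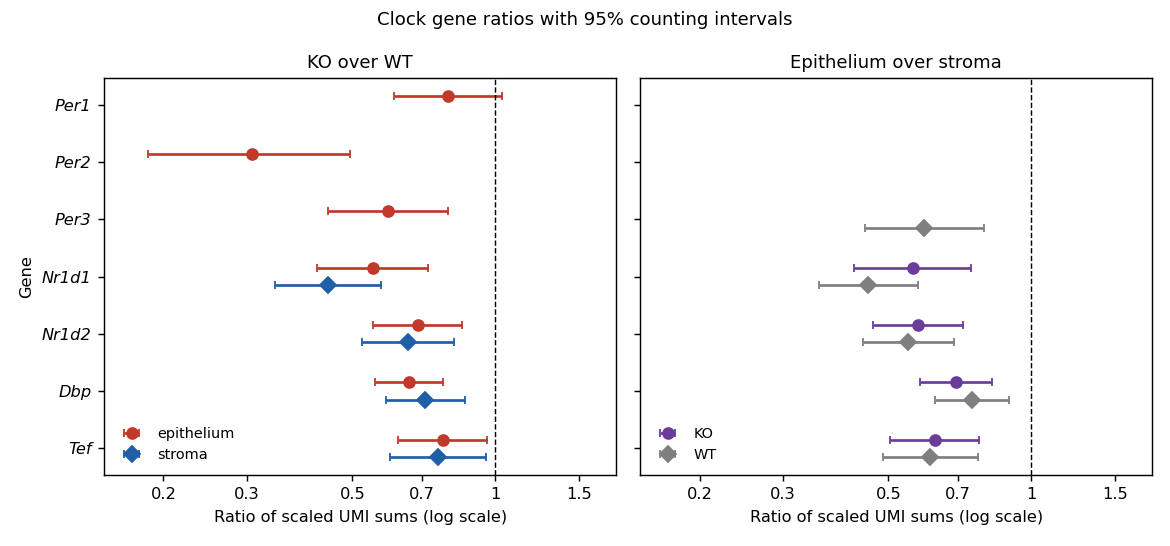
Ratios of scaled UMI sums with 95% counting intervals on log axes, KO over WT at left (epithelium and stroma) and epithelium over stroma at right (KO and WT). Every point lies below the dashed line at 1, and among the intervals the Per1 interval alone crosses it.

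In stroma, Nr1d1, Nr1d2, Dbp and Tef were listed and all 4 were lower in KO, with 0 called. Of the 1191 genes listed there 1.51% were called, 0.756% lower and 0.756% higher in KO. The median ratio of the 4 was 0.683, against 0.966 for all listed genes, of which 54.2% were lower in KO. Their sum was 769 UMIs in KO stroma and 590 UMIs in WT stroma, a ratio of 0.648 (0.581 to 0.722). That sum includes Nr1d1, which was listed through WT stroma alone and so had to be lower in KO. Over the genes listed through both groups the ratio was 0.706. All 4 genes together had a ratio of 0.672 (0.607 to 0.743) in epithelium. Smooth muscle markers had a summed ratio of 0.489 (0.461 to 0.519) in the same stroma pools, over 11 of 15 markers, and their part was not tested there either. Whether the genotype ratio of any gene differed between compartments was not tested, since each group has 1 value. Both genotype tables use spots of the same animals.

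**Figure D3:**
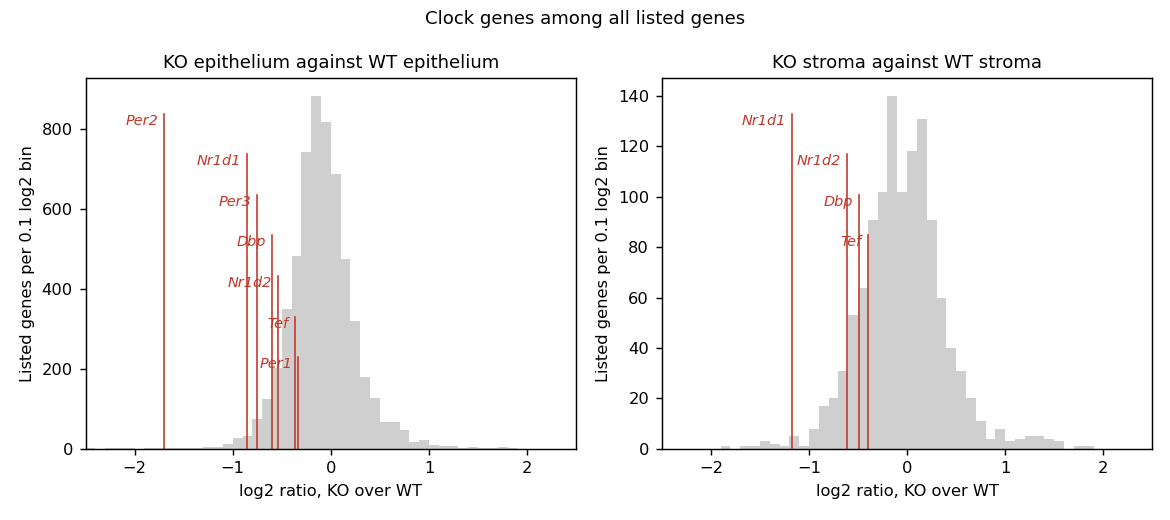
Histograms of the log2 ratio of KO over WT for all listed genes (grey, genes per 0.1 log2 bin), with the clock genes as red lines whose height carries no value. In epithelium the 7 genes run from -1.70 for Per2 to -0.33 for Per1, and in stroma the 4 genes run from -1.17 for Nr1d1 to -0.40 for Tef.

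Per3 could be followed part of the way into stroma. It had 82 UMIs in WT stroma, which is 208 scaled UMIs, and no value in KO stroma. The listing minimum gives a limit there. The rule that a gene is listed where a mean exceeds 1 held for all 2749 genes on which it could be checked in the table of KO epithelium against KO stroma. Under that rule Per3 had at most 89 UMIs in KO stroma. Since Per3 was listed through WT stroma alone, this limit and the WT value follow from the same listing rule, and no ratio is drawn from them. For Per1 and Per2 the rule allows at most 89 UMIs in KO stroma and 69 UMIs in WT stroma.

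Between compartments, the 4 clock genes listed in KO and the 5 listed in WT all had ratios of epithelium over stroma below 1, and 2 of them, Nr1d1 and Nr1d2 in WT, passed the authors' test. In KO uterus Nr1d1 had 0.563 times its stromal value in epithelium (0.424 to 0.747), Nr1d2 0.577 (0.463 to 0.719), Tef 0.626 (0.504 to 0.776) and Dbp 0.693 (0.582 to 0.825). None of these 4 was called, against 9.88% of the 2744 genes listed (4.45% lower and 5.43% higher in epithelium), and the lowest adjusted p in the authors' deposited table was 0.0781, for Nr1d2. In WT uterus the ratio of epithelium over stroma was 0.453 for Nr1d1 (0.356 to 0.576), 0.551 for Nr1d2 (0.443 to 0.686), 0.595 for Per3 (0.446 to 0.796), 0.612 for Tef (0.486 to 0.774) and 0.749 for Dbp (0.627 to 0.898). Nr1d1 and Nr1d2 were called lower in WT epithelium, with adjusted p of 0.00148 and 0.0154 in the authors' deposited table. These are 2 of 5 listed clock genes, where 28.8% of all 1769 listed genes were called, 15.7% lower and 13.1% higher in epithelium. Per3 and Nr1d1 were listed there through stroma alone, as was Nr1d1 in the KO table. The summed ratio was 0.628 (0.565 to 0.697) over 4 genes in KO and 0.604 (0.548 to 0.667) over 5 genes in WT. Over the genes listed through both groups it was 0.639 in KO and 0.649 in WT. The median ratio of all listed genes was 0.994 in the KO table and 1.01 in the WT table.

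The levels of the 4 genes with values in all groups can be put in order. Nr1d1 had 84.0 scaled UMIs in KO epithelium and 152 in WT epithelium, against 149 in KO stroma and 336 in WT stroma. The KO stroma and WT epithelium levels did not differ beyond counting error, while the lowest and the highest stood apart from them. Nr1d2 had 139 scaled UMIs in KO epithelium and 203 in WT epithelium, with 241 in KO stroma and 369 in WT stroma. Dbp had 237 scaled UMIs in KO and 360 in WT epithelium, with 342 in KO and 480 in WT stroma. Tef had 149 scaled UMIs in KO and 193 in WT epithelium, with 239 in KO and 315 in WT stroma. KO epithelium was the lowest and WT stroma the highest group for each, and the intervals of the middle groups overlapped in all 4. For Tef the intervals of neighbouring groups overlapped along the whole order.

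Smooth muscle markers, like Nr1d1, Nr1d2, Dbp and Tef, were lowest in KO epithelium and highest in WT stroma. Nr1d2 and Tef also shared their order of the middle groups, which the counting intervals of these 2 genes did not settle. The 11 of 15 markers with values in all groups summed to 1410 scaled UMIs in KO and 2265 in WT epithelium, with 2778 in KO and 5679 in WT stroma. Between genotypes 11 of 13 listed smooth muscle markers were lower in KO epithelium, 0 of them called. In KO stroma 11 of 11 were lower, 5 of them called. Of all listed genes, 64.8% were lower in KO epithelium and 54.2% in KO stroma. The shares called, in either direction, were 0.12% in epithelium and 1.51% in stroma. Simple epithelium markers were also lower in KO epithelium, 14 of 17 listed, with 1 called lower. Markers of endometrial stroma went the other way in epithelium, with 14 of 17 listed markers higher in KO (summed ratio 1.38, 1.34 to 1.42). Of 15 such markers listed in stroma, 11 were higher and 4 lower in KO, though their summed ratio was 0.906 (0.882 to 0.930). In stroma, 6 of 6 listed simple epithelium markers were higher in KO (summed ratio 2.29, 2.06 to 2.55). Blood endothelium markers had a summed ratio of 1.13 in KO against WT epithelium and 0.755 in KO against WT stroma, over 4 of 10 markers. Macrophage and antigen presentation markers had summed ratios of 1.17 in epithelium (7 of 13 markers) and 1.12 in stroma (5 of 13). Blood markers had 1.66 in epithelium (1 of 4 markers) and 0.339 in stroma (3 of 4). The part of cell composition in the clock gene ratios was not tested.

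Some of these genes share bases with a neighbour, and the sources used here do not say whether reads were counted by strand. Nr1d1 shares 1075 bases with Thra, the thyroid hormone receptor gene, on the opposite strand. Thra had a KO over WT ratio of 0.781 (0.651 to 0.936) in epithelium and 0.943 (0.733 to 1.22) in stroma, nearer to 1 than Nr1d1 in both. Dbp shares 737 bases with Sphk2 on the opposite strand, whose ratio in epithelium was 0.909 (0.641 to 1.29). Per3 lies within the annotated span of Camta1 on the same strand (41014 bases), and Tef shares 193 bases with the antisense gene Gm17597. Values of Nr1d1, Dbp and Tef carry the uncertainty about strand. For Per3, counting by strand would not separate it from Camta1, and how shared reads were assigned is not given in the sources used here.

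Other genes of the clock pathway, from a list of 41, gave no call in any comparison. The shares called among all listed genes were 0.12% between genotypes in epithelium (24 pathway genes listed), 1.51% between genotypes in stroma (8 listed), 9.88% between compartments in KO (11 listed) and 28.8% between compartments in WT (9 listed). Of the 24 listed in KO against WT epithelium, 17 were lower in KO and 7 higher, with a median ratio of 0.913, against 0.930 for all listed genes. In stroma 8 were listed, 5 lower and 3 higher in KO, with a median ratio of 0.878, against 0.966 for all listed genes. Of all listed genes 64.8% were lower in KO epithelium and 54.2% in KO stroma. Between compartments 5 of 11 were lower in epithelium in KO, and 5 of 9 in WT, beside 50.7% and 48.9% of all listed genes. None of the activator genes Arntl and Npas2, the ROR genes, or the bZIP genes Hlf and Nfil3 was analysed here.

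Among repressors, Cry2, a Cryptochrome that acts with the PER proteins, had 77 UMIs in KO epithelium and 62 UMIs in WT epithelium (ratio 1.15, 0.810 to 1.63). Bhlhe40, which competes for E-boxes, had 83 UMIs in KO and 96 UMIs in WT epithelium (ratio 0.798, 0.587 to 1.08). Of the kinases, phosphatases and ubiquitin enzymes that set the stability of PER and CRY, 10 of 14 were lower in KO epithelium, with a median ratio of 0.944. Csnk1e, a casein kinase that phosphorylates PER, had 81 UMIs in KO and 121 UMIs in WT epithelium (ratio 0.618, 0.460 to 0.825). Its relative Csnk1d had 260 UMIs in KO and 224 UMIs in WT epithelium (ratio 1.07, 0.892 to 1.29). Ratios of KO over WT epithelium were 0.756 for the deubiquitinase Usp2, 0.760 for the kinase Gsk3b, 0.869 for Prkaa1, 0.903 for Csnk2b, 0.923 for Fbxw11 and 0.948 for Gsk3a. They were 0.940 for Ppp1cb, 0.979 for Ppp1ca, 0.996 for Ppp1cc, 1.03 for Csnk2a1, 1.04 for Csnk2a2 and 1.14 for Csnk1a1. In the authors' deposited tables the adjusted p of all 14 between genotypes was 1.

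The 4 listed coregulators of the loop had ratios in epithelium from 0.834 for Hdac3, the histone deacetylase recruited by REV-ERBs, to 1.08 for the corepressor Ncor1, with Ep300 at 0.862 and Crebbp at 0.888. Of the outputs, Wee1, a kinase that holds cells before mitosis and is driven through E-boxes, had 22 UMIs in KO epithelium and 59 UMIs in WT epithelium (ratio 0.344, 0.201 to 0.570). Its adjusted p in the authors' deposited table was 0.701, and it was listed through WT alone. Nampt, the rate-limiting enzyme of NAD salvage and another clock output, had 73 UMIs in KO and 49 UMIs in WT epithelium (ratio 1.37, 0.944 to 2.02). Por had a ratio of 0.803 (0.687 to 0.938) and Alas1 of 0.844 (0.634 to 1.12) in epithelium. Of the 4 outputs, Wee1 and Por had intervals below 1, and the intervals of Nampt and Alas1 included 1.

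**Figure D4:**
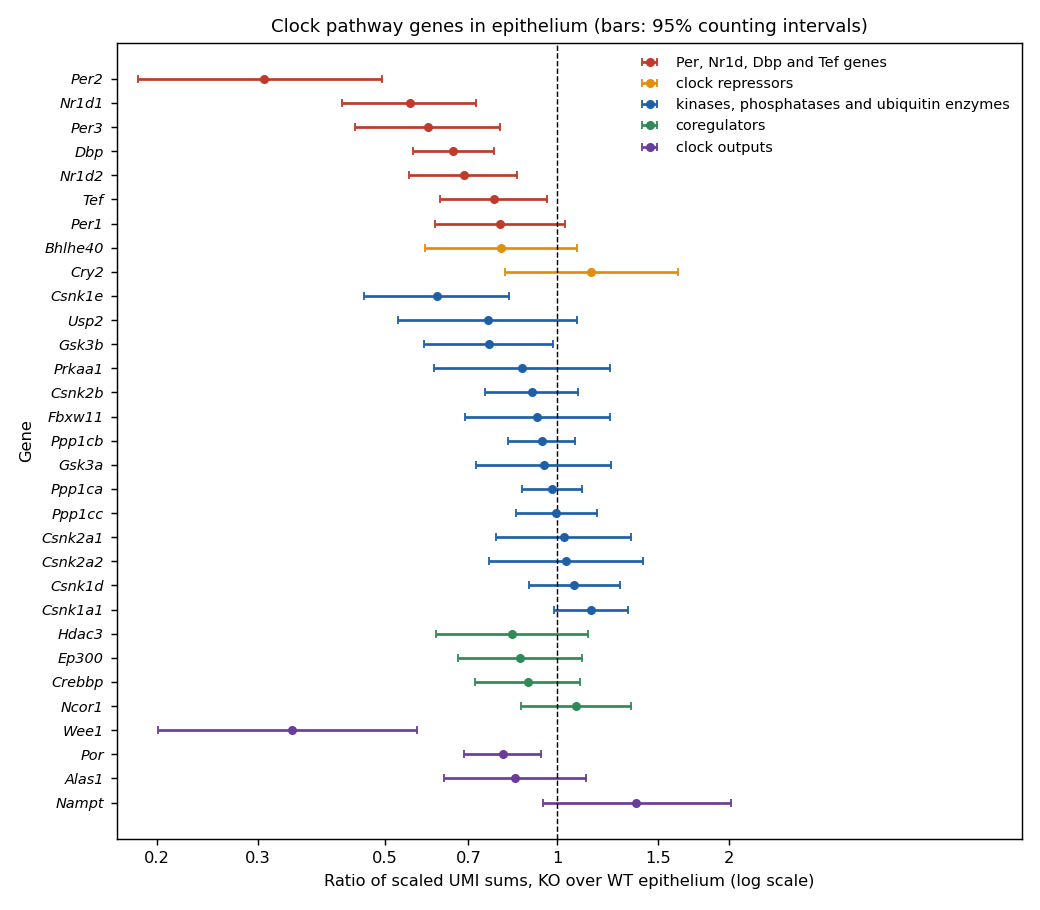
Ratio of KO over WT epithelium for the 7 clock genes and the 24 other listed clock pathway genes, on a log axis with 95% counting intervals, grouped by role. The 7 clock genes run from 0.308 to 0.795, while the other groups lie on both sides of the dashed line at 1.

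Genes of most like pattern were sought over the 4 groups, as the Euclidean distance between log2 levels centred on their mean, among 878 genes at or above the median level of the 1755 genes with all 4 values. Nr1d2 and Tef lay 0.236 apart, Tef and Dbp 0.281, and Nr1d2 and Dbp 0.366. Nr1d1 was farther from the rest, from 0.480 to Nr1d2 up to 0.726 to Dbp. Among the 878 genes, the nearest to Nr1d1 were Fbln1 (0.425), Selenom (0.529) and Aebp1 (0.543). Nearest to Nr1d2 among them were Ttc3 (0.182), Gm42418 (0.256) and Pkd1 (0.271). Tef lay nearer to Nr1d2 than Gm42418 and Pkd1 did, but was below the level searched. Nr1d2, also below it, lay nearer to Nr1d1 than Selenom and Aebp1 did. Nearest to Dbp were Srsf5 (0.118), Hnrnph1 (0.239) and the gene whose ID is that of Marc2 (0.240), and nearest to Tef were Flna (0.115), Rbm39 (0.122) and Zfp503 (0.150). To the mean of the 4 clock genes the nearest were Ttc3 (0.254), Pkd1 (0.303), Pltp (0.313), Clk1 (0.316) and Zfp503 (0.325). These distances carry counting error that was not worked out, and the order of close genes was not tested.

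**Figure D5:**
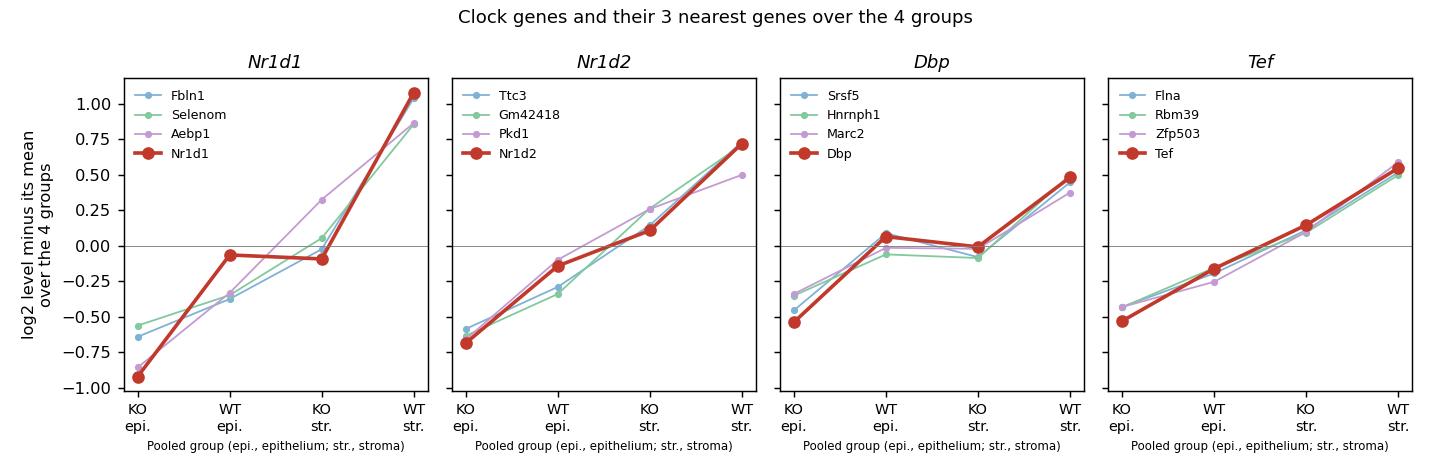
Log2 level minus its mean over the 4 groups for Nr1d1, Nr1d2, Dbp and Tef (thick red). Thin lines are the 3 genes nearest to each among the 878 genes searched. Nr1d1 has the widest span, and each clock gene is lowest in KO epithelium and highest in WT stroma.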

How the data were processed

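Visium libraries from 10 µm uterine sections of 4 KO and 4 WT mice carry the genome build GRCm38, per the submitters' processing notes. How spots were named, which aligner ran and which test gave the p-values is not given in the sources used here. Per the file headers, each of the 4 deposited tables holds a mean level per group (UMIs on a size factor scale, from the values), a log2 fold change and an adjusted p-value (FDR). The authors pooled spots over animals, so no spread between animals is known and p-values can reflect differences among spots.

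UMI sums were recovered from the deposited means, by solving, with least squares, for the size factor sums at which means and deposited log2 fold changes (pseudocount 1) come from the same sums. Sums were whole within 0.01 for 100% of genes, differed between tables for 0 genes, and the step was tested on simulated data. Genes were called at the authors' deposited adjusted p under 0.05. The genes, lists and tests were chosen with earlier results of these data known. The naming rule took the 8 genes, all listed genes of the pathway lists, and the 3 genes nearest to each of the 4 with all values. A gene of the pathway list is not reported here, and counts leave it out. Promoter sequences are from RefSeq (GRCm38.p6) and positions from GENCODE M21 on GRCm38, in which 5826 of 5828 gene IDs were found. Alternatives were an adjusted p of 0.01, a log2 fold of at least 1, leaving out the lowest 25% of genes, other scalings, and leaving out each gene. Python 3.11.15 with NumPy 2.4.6, SciPy 1.17.1, pandas 2.3.3 and matplotlib 3.10.9 was used.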

Additional observations from a re-analysis of the deposited data

How the results depend on the processing

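All 96 alternative values of the ratios, for single clock genes and for their sums, stayed below 1. For sums that leave out genes this was fixed in advance, since every listed clock gene had a ratio below 1. Folds centred on the median gene, the total over 1167 genes as the scale, and the deposited log2 values left all 60 single-gene values within their counting intervals. The centring and the total each move every gene of a comparison by the same small factor, so that outcome follows from the width of the intervals. Intervals were not drawn again around the moved values, so whether they then include 1 is not given. The UMI sums were solved from the deposited log2 values, so those values are no separate check. The median gene of KO against WT epithelium stood at -0.10 on the log2 scale, and the summed ratio there was 0.705 once centred on it. Leaving out each gene in turn gave summed ratios of 0.634 to 0.677 between genotypes in epithelium, 0.617 to 0.706 between genotypes in stroma, 0.592 to 0.644 between compartments in KO and 0.547 to 0.641 between compartments in WT. The value of 0.547, without Dbp, lay outside the counting interval. Of the 2 clock genes called between compartments in WT, 1 was called at an adjusted p of 0.01 and 1 with a log2 fold of at least 1, Nr1d1 in both. Sums over genes listed through both groups or with all 4 values, added after seeing the data, stayed within the counting intervals. No paired analysis was possible because each deposited mean covers all animals of its genotype, which also kept any single animal from being left out. Depth limits single genes, with Per2 at 24 UMIs in KO epithelium and Wee1 at 22.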

Other observations

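Per1 is also induced by glucocorticoids and by cAMP, and short lists of such targets, which include Per1, were read. Of 8 listed glucocorticoid-induced genes, Per1 among them, 6 were lower in KO epithelium, with a median ratio of 0.841 and 0 called. Per1, chosen with its values in view, is among the 6. The median lies between Per1 at 0.795 and Cebpd at 0.889, so Per1 helps to set it. Of all 5811 listed genes 64.8% were lower there, with a median ratio of 0.930, and 0.12% were called. The metallothionein genes Mt1 and Mt2, which bind zinc and copper, had the lowest ratios of KO over WT epithelium among these 8, 0.540 for Mt1 (95% counting interval 0.502 to 0.581) and 0.476 for Mt2 (0.433 to 0.524). The authors' deposited table gives them an adjusted p of 0.637 for Mt1 and 0.384 for Mt2. Tsc22d3, which encodes the glucocorticoid-induced leucine zipper, had 307 UMIs in KO and 421 UMIs in WT epithelium (ratio 0.673, 0.579 to 0.781). Klf9, a Krüppel-like factor that glucocorticoids induce, had a ratio of 1.01 (0.826 to 1.23) in epithelium and 0.656 (0.565 to 0.762) in stroma. In epithelium Cebpd stood at 0.889, Errfi1 at 0.991 and Ddit4 at 1.06, with counting intervals that include 1.

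Between compartments 3 of 5 listed genes of the glucocorticoid list were called in KO, beside a share of 9.88% over all listed genes (5.43% higher, 4.45% lower in epithelium). In WT 3 of 4 were called, beside a share of 28.8% over all listed genes (13.1% higher, 15.7% lower in epithelium). Mt1 and Mt2 were called higher in epithelium, 2.69-fold and 3.22-fold in KO and 4.59-fold and 6.41-fold in WT, and Klf9 was called lower there, at 0.378 times its stromal value in KO and 0.246 in WT. The highest adjusted p of these 6 calls in the authors' deposited tables was 0.000101, for Mt1 in KO. Among the other 8 cAMP-induced genes Junb was listed, with 65 UMIs in KO and 51 UMIs in WT epithelium (ratio 1.18, 0.803 to 1.73).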
